A study of Mus musculus with 18 samples.

Results

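CpG methylation of mouse embryonic stem cells was compared 3 days after the start of acute Dnmt1 deletion. The libraries were chosen by genotype and day alone, and 4 of the 18 whole-genome bisulfite libraries of the series met this rule. They were control replicates 1 and 2, labelled as wild type, and Dnmt1 KO replicates 1 and 2. For the Dnmt1 KO libraries, the methods describe loxP-flanked Dnmt1 removed by Cre after addition of 4-hydroxytamoxifen, in cells grown in serum with LIF. The labels give E14 as the strain of both genotypes, whereas the methods describe the floxed cells as C57BL/6, so a difference between cell lines and the effect of the deletion cannot be told apart. The libraries of days 1, 6, 9 and 11 were used for the level before day 3, for the level reached later and for the spread between replicates. The labels call the replicates biological, and nothing else says how they were separated.

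Dnmt1 is the maintenance DNA methyltransferase. After replication, a CpG that was methylated carries its mark on the old strand alone, and Dnmt1, brought there by Uhrf1, copies the mark onto the new strand. Without it, methylation is diluted with each division, apart from what the de novo enzymes Dnmt3a and Dnmt3b add, both of which are active in embryonic stem cells. At day 3, a population can hold old methylated strands and newly made strands, which were not told apart here. The measurements below describe how much was left where.

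Each read over a CpG gave 1 call, methylated or unmethylated. The day 3 libraries held 9213025 and 9198399 calls in control and 7898404 and 10739460 calls in Dnmt1 KO, within the range of the series of 7190722 to 11158414. This was 1.21 to 1.25 calls per listed cytosine, so single CpGs were not compared and calls were summed over tiles, genes and classes of CpGs. In the mitochondrial genome, taken as the background of unconverted cytosines, 0.228% to 0.318% of the day 3 calls were methylated. Exons 4 and 5 of Dnmt1 (chr9:20744920-20746027, NCBIM37) had 2 and 4 calls in control and 0 in both Dnmt1 KO libraries, which allows up to 3 calls in each. At this depth the loss of these exons was not detectable from the day 3 libraries alone. The rest of the gene had 343 and 383 calls in control and 281 and 457 in Dnmt1 KO. A set of 1841 cytosines with over 20 calls in any library held 6.67% to 7.99% of the day 3 calls, and 66.2% of these lay in a single tile of 100 kb, chr2:98500001-98600000. Their level was 80.6% and 81.0% in control and 42.6% and 43.9% in Dnmt1 KO. Where they move a share by over 1 point, it is given with and without them.

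On the autosomes, 75.6% of calls were methylated in control replicate 1 and 75.5% in control replicate 2. Dnmt1 KO replicates 1 and 2 stood at 33.4% and 34.6%. The genotypes did not overlap, and the replicates of a genotype lay close together, with 75.6% ± 0.0596 in control and 33.98% ± 0.833 in Dnmt1 KO (SD, n = 2 each). The remaining share, that is, the level in Dnmt1 KO divided by the level in control, was 45.0%, or 44.2% and 45.7% for the single Dnmt1 KO libraries. An exact permutation test of 2 libraries against 2 cannot give a p below 0.33. The genome and the classes of CpGs were not fitted with a model, and no p is given for them. Without the 1841 deep cytosines the share was 44.1%. At day 1 the share was 92.1%, and over days 6, 9 and 11 it was 32.8%, and of the loss between day 1 and the late days 79.6% had taken place by day 3. The X chromosome started at the same level as the autosomes, 75.7% and 75.5% in control, and stood lower in Dnmt1 KO, at 29.8% and 31.1%, which made a share of 40.2%.

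The loss reached nearly every part of the genome that could be measured. Tiles of 100 kb were tested where each day 3 library had at least 100 calls, with a quasi-binomial model in which limma moderated the spread over tiles. A tile counted as lower where the p, adjusted after Benjamini and Hochberg, was under 0.05 and at least 10 points had been lost. By this rule 24026 of 24027 tiles (100%) were lower in Dnmt1 KO and 0 were higher, also 0 at an unadjusted p under 0.05. The median tile had 79.3% and 79.2% methylation in the control libraries and 32.2% and 33.6% in the Dnmt1 KO libraries. The distributions hardly touched: the lowest 5% of tiles in control lay under 60.4% and 59.7%, and the highest 5% in Dnmt1 KO over 42.8% and 43.9%. Tiles of 10 kb, with at least 10 calls in each day 3 library, gave 200124 of 207620 tiles (96.4%) lower and 1 higher. At this size the levels spread more, from 10% to 56.2% and from 12.5% to 55.2% between the 5th and 95th percentiles of the Dnmt1 KO libraries.

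**Figure D1:**
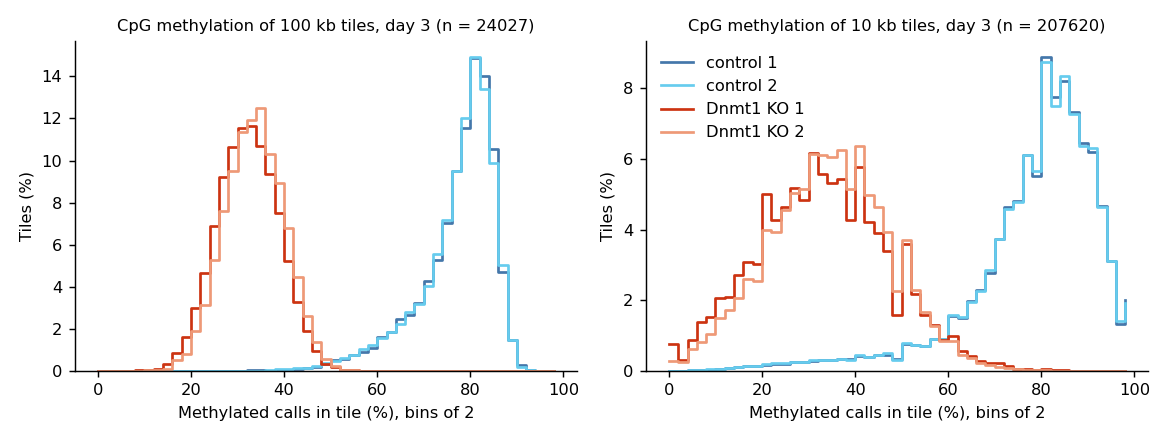
Methylated calls per tile (%, horizontal axis, bins of 2 points) against the percent of tiles (vertical axis), for 100 kb tiles on the left and 10 kb tiles on the right, with a line for each day 3 library. The control lines lie over each other with medians of 79.3% and 79.2% in 100 kb tiles, and the Dnmt1 KO lines peak at lower levels with medians of 32.2% and 33.6%.

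Within this loss, tiles differed in how much they kept. Among 23809 tiles of 100 kb that had at least 50% methylation in the control libraries of the other days, the median remaining share was 43.0%, with 5% of tiles under 32.6% and 5% over 52.6%. Each tile was tested against the median tile in the same quasi-binomial model with limma, and was called at an adjusted p under 0.05 and a ratio at least 1.2-fold from the median. A high share was called in 718 tiles (3.02%) and a low share in 51 (0.214%), while 4716 tiles had an unadjusted p under 0.05. These counts depend on the settings and on single libraries. With a minimum of calls 2 times as high, 70 tiles were called high and 3 low, and with limma on the levels 585 and 221. Without Dnmt1 KO replicate 1, 98 tiles were called high and 0 low, and without Dnmt1 KO replicate 2, 51 and 0. Without control replicate 1 or 2 the low calls came to 24 and 32. On the scale of points lost, against tiles with the same starting level, 16 tiles were called high and 2 low. The shares of the replicates, each Dnmt1 KO library over the control library of its number, correlated over tiles with r = 0.444, and the share at day 3 correlated with that at days 9 and 11 with r = 0.723 and with that at day 1 with r = 0.0677. These are descriptions over 23809 tiles that share depth and base composition, and tiles are not independent replicates. In tiles of 10 kb, 1022 of 196520 (0.52%) were called high and 5 (0.00254%) low. Without control replicate 1 or 2 the high calls came to 234 and 230, and without Dnmt1 KO replicate 2 to 1706. With limma on the levels 0 were called high and 24 low, and on the scale of points lost 84 and 164. The low calls were 2 without Dnmt1 KO replicate 1, 3 without control replicate 2 and 1 without Dnmt1 KO replicate 2.

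The tiles called high and low had opposite sequence make-up. The 718 high tiles had a median GC content of 45.1%, 1135 CpGs and 82.8% methylation in control, and went to 45.1% in Dnmt1 KO, a share of 54.7%. The 51 low tiles had a median GC content of 36.6%, 465 CpGs and 78.3% methylation in control, and went to 19.5%, a share of 25.5%. Over all tiles tested, the median GC content was 41.4% and the median number of CpGs 776. A gene lay in 81.6% of the high tiles, 47.1% of the low tiles and 66.7% of all tiles, whereas a gene start lay in 32.7%, 25.5% and 47.1%. Pseudogenes and small and ribosomal RNA genes were not counted, nor, for a gene in a tile, genes of up to 1 kb. The Dnmt1 KO levels of days 9 and 11 did not enter the share at day 3, though these libraries entered the estimate of the spread and their controls the starting level. The late shares ordered the tiles the same way, since 711 of 718 high tiles and 2 of 51 low tiles lay above the median late share of 30.9%. At day 1, 444 of 718 high tiles and 25 of 51 low tiles lay above the median, and the median shares were 92.3% in high, 91.2% in low and 91.3% in all tiles. High tiles were often neighbours, with 255 of 718 (3.02% of all tiles tested were high) next to another high tile. Of the 51 low tiles 0 touched another low tile. Only 0.214% of all tiles tested were low, too few to tell whether low tiles cluster. Chromosomes 8 and 19 had the most high tiles, 5.78% and 5.77% of those tested, and the X chromosome the fewest, 0.835% of 479. Depth differed between chromosomes. Without deep cytosines, control replicate 1 had 573146 calls on chromosome 8 for 1229 tested tiles and 594198 on chromosome 1 for 1894. The part of depth in these counts was not tested. The summed share without deep cytosines was 44.7% on chromosomes 8 and 19, and 44.8% on chromosome 9, where 3.35% of tiles were high.

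GC content ordered the remaining share over the whole set and not just among the called tiles. Tiles of the autosomes were divided into 5 equal classes of GC content, with limits at 38.3%, 40.3%, 42.6% and 45.3%. From the lowest to the highest class, the median tile kept 36.6%, 40.8%, 44.3%, 46.4% and 46.2% of its methylation. Starting levels did not follow this order: the medians in control were 80.4%, 80.8%, 80.3%, 78.6% and 73.6%. Day 1 showed little of it, with median shares between 90.7% and 91.8%, and days 9 and 11 showed more, from 18.7% in the lowest class to 36.3% in the highest. Of the 718 high tiles, these classes held 1, 12, 96, 276 and 329 on the autosomes, and of the low tiles 40, 4, 4, 0 and 2. Tiles without a gene start in the highest class kept 48.9%, more than the 45.2% of tiles with a gene start, and in the lowest class the medians were 36.5% and 37.0%. Over 23330 autosomal tiles GC content and share had a Spearman rho of 0.573, and starting level and share of 0.0976, given as descriptions with no test. Calls per tile differ with GC content as well, and their part in this order was not tested.

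**Figure D2:**
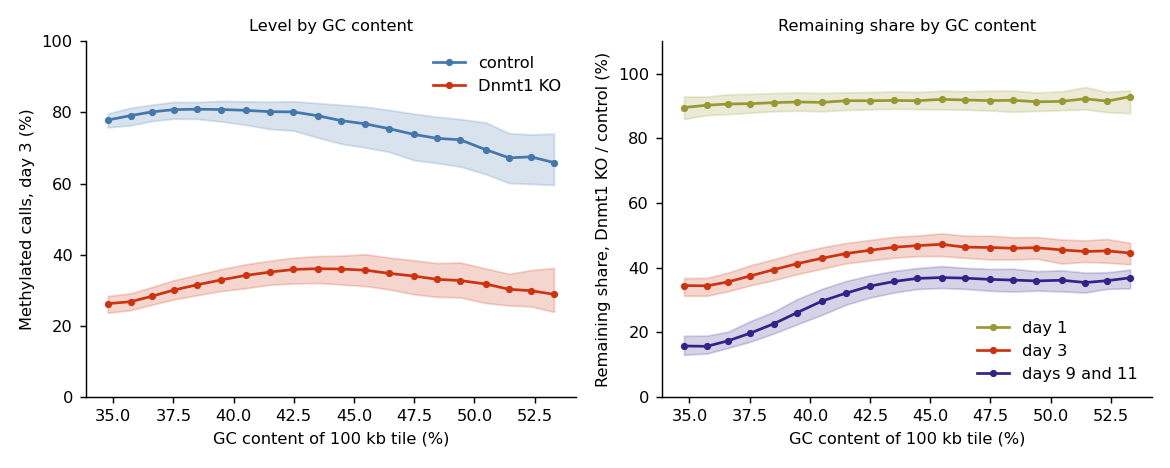
GC content of 100 kb autosomal tiles (%, horizontal axis, bins of 1 point) against methylation at day 3 (%, left) and against the remaining share (%, right), with medians as points and the middle 50% of tiles as bands. Control levels decline towards high GC. The median share at day 3 climbs from 34.4% in the lowest bin to 47.2% at 45.5% GC and is lower again beyond it. Day 1 medians stay between 89.5% and 92.9%, and days 9 and 11 are steeper than day 3.

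Named tiles were the 10 highest and the 10 lowest shares among the called 100 kb tiles. The highest shares were on the X chromosome, at chrX:33400001-33500000 in Dock11, an activator of the small GTPase Cdc42, and at chrX:56300001-56400000 in Fgf13, which encodes an intracellular fibroblast growth factor homologous factor. The Dock11 tile had 64.8% and 60.7% methylation in control and 41.2% and 49.3% in Dnmt1 KO, a share of 73.1% (adjusted p = 0.00862, quasi-binomial model). The Fgf13 tile had 65.8% and 46.3% in control and 39.3% and 39.7% in Dnmt1 KO, a share of 72.6% (adjusted p = 0.0342, quasi-binomial model). In both, day 3 control levels lay under those of the other days, 75.9% and 72.8%, and the late shares of 26.2% and 16.7% were below the median tile, so their rank was not seen again at days 9 and 11.

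The other 8 high tiles had late shares from 39.0% to 48.5%, all above the median of 30.9%. The tile chr11:85600001-85700000 held the end of Bcas3 and the T-box factor genes Tbx2 and Tbx4, and went from 50.7% and 52.7% in control to 30.8% and 34.6%, a share of 63.7%. At chr16:92600001-92700000, in Runx1, the transcription factor needed for definitive blood formation, control stood at 70.9% and 71.3% and Dnmt1 KO at 45.8% and 44.0%, a share of 63.0%. A share of 61.4% was found at chr1:191900001-192000000 in Prox1, a homeobox factor of lymphatic endothelium and liver, where control had 64.3% and 72.4% and Dnmt1 KO 44.7% and 39.3%. The Dusp10 tile, of a phosphatase acting on stress kinases, kept 61.8%, from 73.7% and 80.9% to 46.2% and 49.1%. The tile at chr17:50200001-50300000, in the lipid raft gene Rftn1, kept 62.3%, from 82.0% and 85.2% to 50.1% and 53.6%. The remaining ones held Gm17033 on chromosome 12 (62.3%), A230072I06Rik on chromosome 8 (61.2%) and, on chromosome 9, no gene (61.2%), with Rbms3 at 60970 bp. Except in the A230072I06Rik tile, day 3 control levels of these 8 also lay under those of the other days. The gap was smallest on chromosome 9, 86.9% against 87.0%, and largest in the Bcas3 tile, 51.6% against 59.1%. In each of the 10 the Dnmt1 KO libraries both lay below both control libraries, and adjusted p from the quasi-binomial model ran from 0.000325 to 0.0342.

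Of the 10 lowest tiles, 8 held no gene of the kinds counted here. The lowest share, 21.8%, was at chr4:80100001-80200000, which holds no gene and lies 280027 bp from the pigment gene Tyrp1. It had 80.6% and 79.1% methylation in control and 15.8% and 18.95% in Dnmt1 KO (adjusted p = 0.020, quasi-binomial model). At chr7:69400001-69500000, which holds the imprinted neuronal gene Ndn, control stood at 74.6% and 81.5% and Dnmt1 KO at 18.8% and 16.1%, a share of 21.9%. The control level of this tile on the other days was lower, 65.6%. Another tile with genes, those of the adhesion receptor Cd226 and the adaptor Dok6, kept 22.7%. The other 7 low tiles held no gene and kept 21.9% to 23.1%. Their nearest genes were RP23-405M24.1 at 39920 bp, 4932441J04Rik at 161321 bp, Slitrk1 at 409208 bp, Cdh20 at 565106 bp, Arrdc3 at 622645 bp, Ncam2 at 1375471 bp and Lphn3 at 1549163 bp. In the low tiles named here the late shares were 9.84% to 16.4%, all under the median of all tiles.

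A window of 200 bases from a low tile and 2 from high tiles are printed to show what such sequence looks like, with each CpG in capitals. They are the NCBIM37 plus strand and were picked after the values were seen, as the windows without exons or deep cytosines that had the most day 3 calls and at least 60% methylation in control. The window of the low tile lies between genes, that in Runx1 lies in an intron, and the third lies in an intron of Bcas3 and of 2610027K06Rik.
low share, chr4:80187751-80187950: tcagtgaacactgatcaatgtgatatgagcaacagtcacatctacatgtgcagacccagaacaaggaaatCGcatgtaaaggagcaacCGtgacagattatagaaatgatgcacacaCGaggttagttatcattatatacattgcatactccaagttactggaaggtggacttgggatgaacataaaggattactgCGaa
high share, Runx1, chr16:92657701-92657900: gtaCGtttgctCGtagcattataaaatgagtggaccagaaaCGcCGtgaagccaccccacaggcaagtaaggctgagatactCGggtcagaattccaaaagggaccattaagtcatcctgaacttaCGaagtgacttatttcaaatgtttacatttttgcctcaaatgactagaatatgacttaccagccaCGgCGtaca
high share, Bcas3, chr11:85614826-85615025: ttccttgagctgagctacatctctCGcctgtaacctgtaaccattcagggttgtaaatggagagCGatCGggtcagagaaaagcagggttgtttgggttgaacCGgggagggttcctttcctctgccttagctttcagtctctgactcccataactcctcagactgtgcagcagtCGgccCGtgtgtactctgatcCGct
The low window has 4 CpGs and 40.5% GC. Its calls were methylated in 8 of 8 cases in control and in 2 of 7 in Dnmt1 KO. The Runx1 window has 8 CpGs and 43.5% GC, with 19 of 22 calls methylated in control and 9 of 18 in Dnmt1 KO. In the Bcas3 window, with 7 CpGs and 52.5% GC, 15 of 15 calls were methylated in control and 6 of 9 in Dnmt1 KO. Calls of a single window come from few reads, and the windows illustrate the tiles without carrying a test.

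Tiles above or below the median came in long unbroken runs. The longest below it was chr14:106600001-112700000, with 61 tiles in a row and 3 gene starts, those of the synaptic adhesion genes Slitrk1, Slitrk6 and Slitrk5. Its mean tile level was 79.3% and 78.8% in control and 26.7% and 27.8% in Dnmt1 KO, the median tile kept 34.5%, and the GC content was 36.4%. A second run on the same chromosome, chr14:93400001-98900000, had 55 tiles over the protocadherin gene Pcdh9, the Kelch gene Klhl1 and the developmental factor Dach1, and kept 34.9%. On chromosome 8, a run of 55 tiles (chr8:50700001-56200000) with 10 gene starts, among them those of the lymphatic growth factor Vegfc and the neuronal membrane glycoprotein Gpm6a, kept 35.2%. The longest above the median was chr7:140300001-146100000, with 58 tiles, 28 gene starts and 45.2% GC, including the receptor gene Fgfr2, the corepressor gene Ctbp2, the proliferation gene Mki67 and the DNA repair gene Mgmt. Its mean tile level was 81.0% and 80.6% in control and 38.8% and 41.1% in Dnmt1 KO, with a median share of 49.8%. Runs of 51 tiles on chromosome 19, from Shoc2 past the Wnt effector gene Tcf7l2, and of 38 tiles on chromosome 12, over Dicer1, the Tcl1 cluster and Bcl11b, kept 50.6% and 50.96%. In a run of 37 tiles on chromosome 9, around the TGF-beta receptor gene Tgfbr2 and Rbms3, the median share was 51.3%. No chance expectation was set against the length of these runs.

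At the level of single CpGs, the share climbed with the number of CpGs near by, up to 10 to 14 of them. A CpG with no other within 250 bp on either side had 78.5% and 78.3% methylation in control and 27.1% and 28.9% in Dnmt1 KO, a share of 35.7% ± 1.68 (SD over the Dnmt1 KO libraries, n = 2). With 2 to 3 CpGs in that window, the CpG itself counted, the share was 39.2%, with 4 to 6 it was 43.8% and with 7 to 9 it was 47.2%. Control levels hardly moved over these classes, from 78.4% to 80.9%. With 10 to 14 CpGs the share was 49.4%, or 47.8% without the deep cytosines, and with 15 to 19 it was 50.8%, or 47.6% without them. With 20 to 24 CpGs it was lower, 47.1% with or without them. Dense sequence of 25 or more CpGs had 7.81% and 7.65% in control and 4.26% and 3.92% in Dnmt1 KO. There the share was 52.9%, from 55.1% and 50.7% in the single Dnmt1 KO libraries, and the mitochondrial background of up to 0.318% makes up a larger part of so low a level. The order from lone CpGs to 10 to 14 held in each Dnmt1 KO library taken alone.

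The bases beside the CpG separated the shares less. CpGs with A or T on both sides had 76.6% and 76.4% methylation in control and 32.3% and 33.7% in Dnmt1 KO, a share of 43.1%, or 41.5% without the deep cytosines. CpGs with C or G on both sides started lower, at 70.9% in both control libraries, and ended at 32.6% and 33.4%, a share of 46.6% with or without them. Among the 10 strand-symmetric contexts, TCGA had the lowest share, 41.1%, and GCGC the highest, 48.8%. Among lone CpGs, where no neighbour is near, A or T on both sides gave 33.8%, a mixed pair 36.6% and C or G on both sides 38.4%. The single Dnmt1 KO libraries gave 32.7% and 34.9% for the first and 36.9% and 39.99% for the last, which did not overlap. Within each GC class, CpGs in sparse sequence (under 10 CpGs in the window) also kept less with A or T on both sides, from 35.4% (33.9% without the deep cytosines) against 39.8% in the lowest class to 44.2% against 46.0% in the highest.

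**Figure D3:**
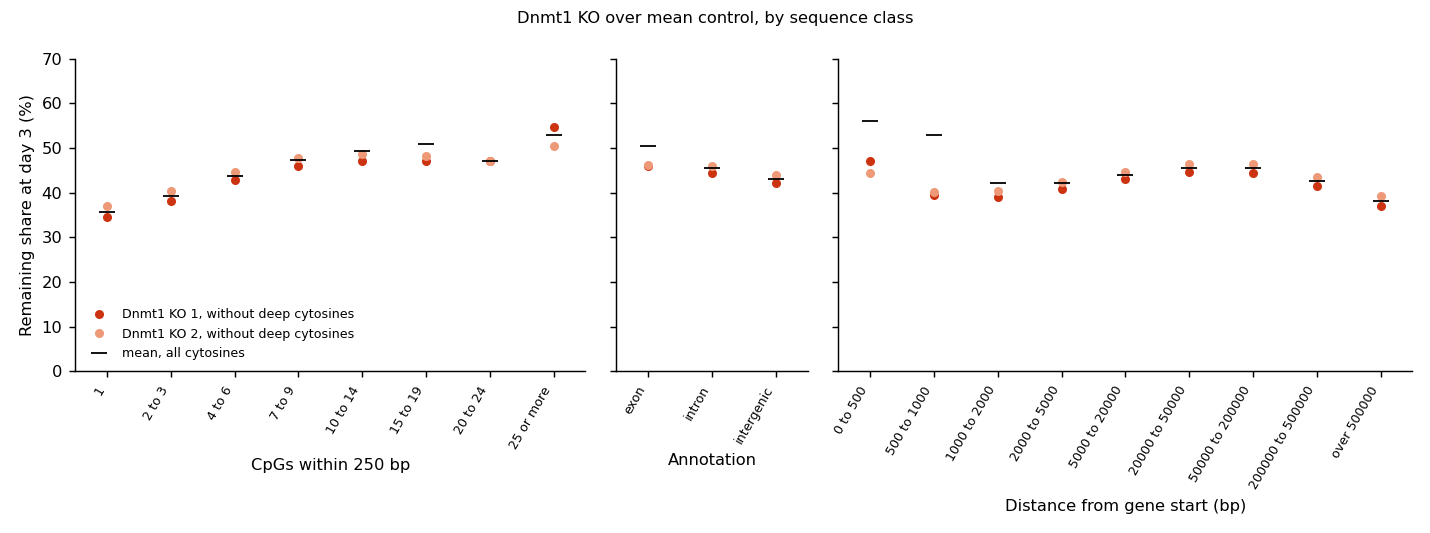
Remaining share at day 3 (%, vertical axis) for autosomal CpGs classed by the number of CpGs within 250 bp (left), by annotation (middle) and by distance from the nearest gene start (right), with points for the single Dnmt1 KO libraries over the control mean without cytosines of over 20 calls and dashes for the mean of both with all cytosines. The share climbs from 35.7% for lone CpGs to 47.2% with 7 to 9 CpGs. Within 500 bp of gene starts the deep cytosines raise the share from 45.7% to 55.96%.

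Annotation separated CpGs less than density did. Introns had 76.6% and 76.5% methylation in control and 34.2% and 35.4% in Dnmt1 KO, a share of 45.5%, and intergenic sequence started at the same level, 76.6% and 76.5%, and ended at 32.3% and 33.7%, a share of 43.1%. Exons kept 50.5%, but only 46.1% without the deep cytosines, so the distance of exons from introns rested mostly on these. In sparse sequence, introns kept more than intergenic sequence in each GC class. The shares were 37.1% against 36.2% in the lowest class and 45.9% against 45.1% in the highest. These differences were within the distance between the Dnmt1 KO libraries. Without the deep cytosines, each Dnmt1 KO library taken alone had this order in each class. CpGs over 500 kb from any gene start kept 38.1%, from 80.9% and 80.5% to 29.8% and 31.6%, while those at 20 to 50 kb kept 45.5%. Within 500 bp of a gene start the share was 55.96% with the deep cytosines and 45.7% without them. Between 500 bp and 1 kb it was 52.8% with them and 39.8% without them. Between 1 and 2 kb it was 42.2% with them and 39.6% without them. The share thus did not simply fall with distance, and without the deep cytosines it was also low beside gene starts. Tiles of 10 kb grouped by their level in control of the other days ran from 38.5% under 30% methylation to 47.5% at 90% or more, with 41.8% at 70 to 80% and 46.5% at 80 to 90%, or 45.5% there without the deep cytosines. Without the deep cytosines the shares of the autosomes lay between 43.2% on chromosome 16 and 44.8% on chromosome 9, and with them chromosomes 2 and 9 stood at 48.2% and 48.4%.

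Neighbouring CpGs were read together to ask how the remaining methylation was arranged. Pairs of cytosines on the same strand with 1 call each were used, which at short distances can lie on 1 read. Agreement was set to 0 where mixed pairs were as frequent as the level of the pairs gives without any link and to 1 where there were none. At 21 to 50 bp it was 0.694 and 0.697 in control and 0.488 and 0.495 in Dnmt1 KO. In sparse sequence the order was the other way, with 0.365 and 0.361 in control and 0.415 and 0.412 in Dnmt1 KO. In sparse Dnmt1 KO pairs of this distance, 22.8% and 23.9% were both methylated, 50.2% and 48.5% both unmethylated and 27.0% and 27.6% mixed, where 46.2% and 47.0% would be mixed without a link. At 76 to 100 bp agreement was 0.243 and 0.225 in sparse Dnmt1 KO sequence, and beyond 150 bp, up to 200 bp, it was higher again, 0.287 and 0.250. Control also rose between these distances, but less, from 0.180 and 0.191 to 0.195 and 0.205. Agreement in sparse sequence declined with distance to 0.0211 and 0.0201 in Dnmt1 KO and 0.0315 and 0.0306 in control beyond 500 bp, up to 1000 bp.

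The calls on opposite strands of the same CpG were compared next. After bisulfite the strands are separate fragments, so such a pair mostly compares different cells or alleles, whereas neighbours on 1 strand can be the same molecule. In sparse sequence, agreement between the strands was 0.102 and 0.108 in control and 0.0471 and 0.0441 in Dnmt1 KO, far below the 0.415 and 0.412 of neighbours at 21 to 50 bp. Over all CpGs it was 0.255 and 0.264 in control and 0.0692 and 0.0730 in Dnmt1 KO. Runs of 4 cytosines within 50 bp on 1 strand, with 1 call each, were counted outside the dense sequence, the highest class of CpG density described above. The mostly unmethylated CpGs of that class are therefore not in these values. Sparse sequence and the classes between were counted together, so that regions of different level still enter. In Dnmt1 KO, 41.4% and 40.3% of runs had 0 methylated calls and 17.1% and 18.01% had 4, where the level without a link gives 15.4% and 14.3% and 1.96% and 2.20%. In control, 58.4% and 57.8% of runs had 4 methylated calls and 13.0% had 0 in each library, where the level without a link gives 32.1% and 31.7% and 0.372% and 0.388%. In the Dnmt1 KO libraries of day 1, 52.5% and 52.6% of runs were fully methylated, and at day 11 the values were 10.2% and 10.7%. Whether a run lies on 1 read was not recorded in the files, and the part of amplified copies left after deduplication was not tested.

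**Figure D4:**
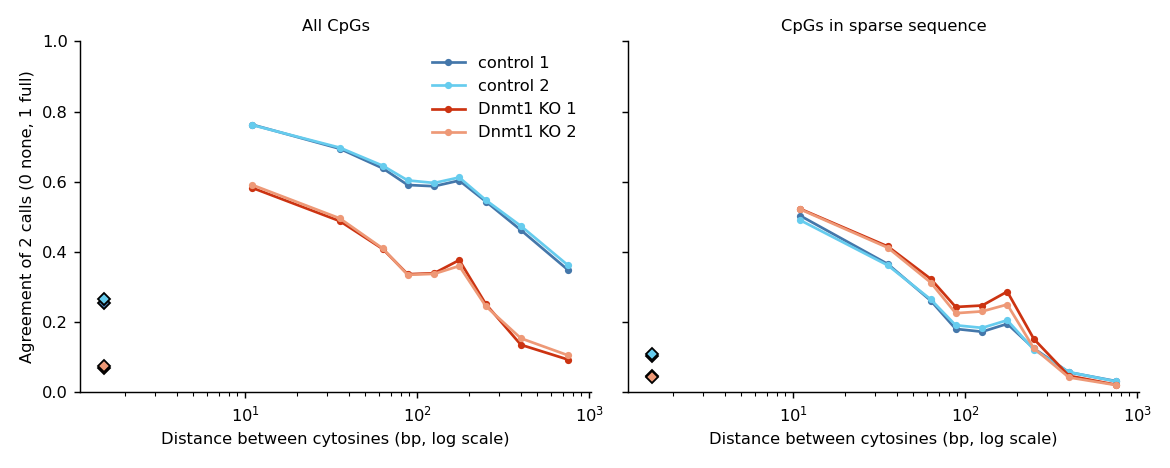
Agreement between calls (vertical axis, 0 for no link and 1 for no mixed pairs) against the distance between cytosines of the same strand (bp, log axis) for all CpGs and for sparse sequence, with a line for each day 3 library. The diamonds drawn at 1.5 bp stand for the opposite strands of the same CpG with 1 call each, which lie at 0.0471 and 0.0441 in sparse Dnmt1 KO sequence while neighbours at 21 to 50 bp lie at 0.415 and 0.412.

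Gene bodies, taken as the gene without the first 1 kb, followed the genome. Of 16419 bodies with at least 20 calls in each day 3 library, 16039 (97.7%) were lower in Dnmt1 KO and 0 were higher by the quasi-binomial model, also at an unadjusted p under 0.05. Against the median body, which kept 43.9%, 224 of 15499 (1.45%) were called with a high share and 73 (0.471%) with a low one. Without Dnmt1 KO replicate 2 these came to 111 and 19, and without Dnmt1 KO replicate 1 the low ones came to 30. With limma on the levels 0 bodies were called high and 3 low, and on the scale of points lost 90 and 39. The 73 low bodies were long, at a median of 468447 bp, while the median was 30228 bp over all bodies tested and 89337 bp for the 224 high ones. Their calls followed length, with medians of 3367 in low, 2109.5 in high and 519 in all bodies. At days 9 and 11, 217 of the 224 high bodies and 2 of the 73 low ones lay above the median late share of 33.6%.

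The lowest called shares included a pigment gene, a glycine receptor gene and the gene of a macrophage antigen. Rnf114, a ubiquitin ligase gene, had 63.1% and 65.7% methylation in control and 11.5% and 15.4% in Dnmt1 KO, a share of 21.2% (adjusted p = 0.0262, quasi-binomial model). Its late share, 33.7%, was at the median of all bodies. Tyr, the tyrosinase gene of melanin synthesis, went from 80.9% and 83.0% to 16.2% and 21.2%, a share of 23.1%, and had a late share of 10.4%. For Glra2, a glycine receptor gene on the X chromosome, control stood at 78.9% and 81.9% and Dnmt1 KO at 17.5% and 21.6%, a share of 24.5%. Others among the 10 lowest were the formin gene Fhod1 (23.3%), the transporter genes Slc15a4 (24.8%) and Slc22a27 (26.4%), the nucleolar GTPase gene Gnl2 (26.3%), 4930554H23Rik (26.6%), Emr1, which encodes the macrophage antigen F4/80 (28.5%), and Tmem201 (28.6%). Late shares of these others ran from 15.5% in Slc22a27 to 34.2% in Tmem201, with 32.4% in Slc15a4, where the median body had 33.6%. Except in Slc22a27, their day 3 control levels lay above those of the other days, as in Slc15a4 (73.4% against 62.3%) and Tmem201 (87.3% against 77.6%). In all 10 both Dnmt1 KO libraries lay below both control libraries.

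The highest called bodies rested on few calls, 25 to 197 per library. Except in Klhl17, their day 3 control levels lay below those of the other days, which makes the share higher. In Zxdc the control level was 62.9% against 78.6% on the other days, and in Gm16529 it was 69.4% against 81.1%. Gm16529, a long noncoding RNA gene, had 67.6% and 72.0% in control and 44.0% and 74.2% in Dnmt1 KO, which overlapped. Its share was 87.5% and its late share 33.3%, at the median. Cspg5, a chondroitin sulfate proteoglycan gene of the brain, kept 83.2% with 58.1% and 45.7% in control and 49.4% and 38.7% in Dnmt1 KO, which overlapped, and had a late share of 46.3%. The choline kinase gene Chkb also overlapped, with 50% and 68.9% in control and 66.7% and 38.3% in Dnmt1 KO. Pck1, the gluconeogenic enzyme gene, kept 77.5%, from 81.8% and 80% to 69.2% and 58.5%, with a late share of 47.1%. The plexin gene Plxna3 kept 77.4%, from 79.4% and 85.7% to 73.8% and 55.6%. Klhl17, Scarf1, Zxdc and 4933437N03Rik kept 73.5% to 78.2%, and of these Zxdc overlapped, with 51.4% and 77.8% in control and 37.4% and 52.2% in Dnmt1 KO. Of the 10 highest, 2 had a late share over 40%.

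The genes that write, remove and read DNA methylation lost it in their own bodies, with a summed share at that of the genome. Of 19 such genes, 17 were lower in Dnmt1 KO, against 97.7% of all bodies, and Zfp57 and Dppa3 did not pass the test. Summed over the list, the level was 69.5% and 69.3% in control and 30.7% and 31.7% in Dnmt1 KO, a share of 45.0%, and 0 of the 16 genes tested for their share were called, against 1.45% of all bodies for a high and 0.471% for a low share, with 3 at an unadjusted p under 0.05 where 2113 of 15499 bodies had one. Dnmt1 itself had 76.6% and 78.0% in control and 36.7% and 42.6% in Dnmt1 KO (a difference of -36.9 points, SE 3.72, adjusted p = 3.6e-11, quasi-binomial model). The de novo enzyme genes Dnmt3a and Dnmt3b went from 65.02% and 69.98% to 31.8% and 31.0%, and from 80.3% and 79.2% to 34.9% and 38.5%. Tet1, a dioxygenase gene of active demethylation, went from 64.5% and 59.97% to 19.3% and 25.2%, a share of 35.8%, and its relative Tet3 from 79.9% and 81.3% to 39.4% and 46.5%, a share of 53.3%. Neither share passed the test against the median body (adjusted p = 0.31 and 0.0929, quasi-binomial model). The deubiquitinase gene Usp7 kept 37.9% and the methyl-CpG reader gene Zbtb38 kept 49%.

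Further lists of the machinery of silencing gave the same picture. All 9 RNA interference genes with enough calls were lower, as were 97.7% of all bodies, and the list kept 44.5%, among them Dicer1, from 82.5% and 86.3% to 40.9% and 41.1%, Drosha, from 83.2% and 80.1% to 36.6% and 38.8%, and the Argonaute genes Eif2c2 and Eif2c3 with shares of 45.2% and 36.5%. Xpo5, the exporter of miRNA precursors, went from 87.9% and 86.6% to 37.4% and 38.5%. Tarbp2 did not have enough calls. Of 15 genes of repressive histone marks, 14 had enough calls and all 14 were lower, with a summed share of 44.2%. The body of Jarid2, a subunit of Polycomb complexes, started at 46.4% and 45.5% and went to 19.3% and 22.4%, and that of the H3K9 methyltransferase Ehmt1 from 84.1% and 82.8% to 38.0% and 36.3%. Atf7ip, a cofactor of H3K9 methylation, kept 50.5%, and the Polycomb methyltransferase genes Ezh1 and Ezh2 kept 42.6% and 44.9%. In both lists 0 genes were called for a high or low share, against 1.45% and 0.471% of all bodies, and 0 had an unadjusted p under 0.05, against 2113 of 15499 bodies.

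Pluripotency genes started at a lower level, 56.5% in both control libraries over the list, and went to 25.1% and 26.7%, a share of 45.9%. Of 21 annotated genes 13 had enough calls, and 10 of these were lower, against 97.7% of all bodies. Esrrb, an orphan nuclear receptor gene, went from 61.0% and 63.5% to 30.6% and 31.0%, and Nr5a2 from 72.1% and 74.3% to 32.5% and 35.5%. Sall4, a zinc finger factor gene, went from 31.9% and 41.5% to 14.3% and 20%. Klf5 had 59.5% and 45.2% in control and 9.57% and 16.0% in Dnmt1 KO. Pou5f1, the gene of the factor Oct4, had 19.4% and 9.52% in control and 0% in both Dnmt1 KO libraries on 22 to 29 calls, and did not pass the test (adjusted p = 0.0602, quasi-binomial model), nor did Tbx3 by the size of its difference (-9.23 points).

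**Figure D5:**
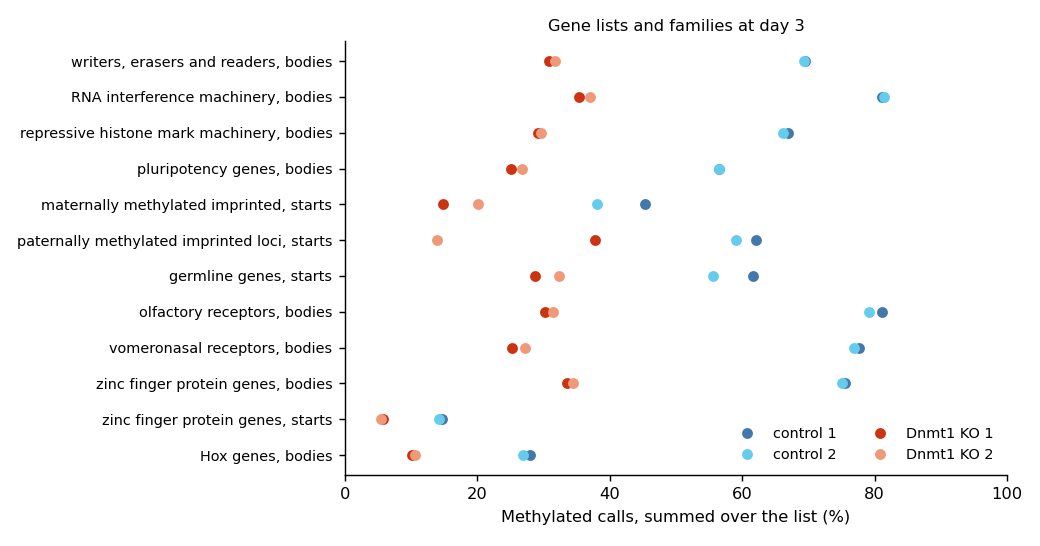
Methylation at day 3 (%, horizontal axis) of the gene lists and families (vertical axis), summed over the members and marked for each of the 4 libraries. Bodies of the machinery lists have control levels of 66% to 82% and Dnmt1 KO levels of 29% to 38%, and Hox bodies and zinc finger gene starts lie far lower in both genotypes.

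Starts of imprinted genes carry methylation on 1 parental copy, so that intermediate levels are usual. Summed over the starts (1 kb on either side) of genes with maternal methylation, the level was 45.3% and 38.1% in control and 14.8% and 20.2% in Dnmt1 KO, a share of 42.0%. Of 10 starts with enough calls, 3 were lower, against 5.43% of all gene starts tested and, by their level in control of the other days, 2.19% of those at 10 to 30%, 12.4% at 30 to 50% and 32.5% at 50 to 70%. The start of Nnat, a neuronal proteolipid gene, had 44.4% and 47.7% in control and 8.70% and 0% in Dnmt1 KO (adjusted p = 0.00602, quasi-binomial model). Nap1l5 went from 80% and 60.7% to 14.3% and 18.2% (adjusted p = 0.00929, quasi-binomial model), and Inpp5f from 20.5% and 48.0% to 2.04% and 2.27% (adjusted p = 0.0468, quasi-binomial model). The shares of Nnat and Inpp5f were higher at the late days, 34.3% and 42.6%, than at day 3, 9.43% and 6.30%. The list as a whole went the other way, with a summed late share of 14.6% against 42.0% at day 3. Zrsr1, with 45.9% and 41.4% in control and 20.6% and 23.1% in Dnmt1 KO, and Mcts2, with 16.7% and 30% and then 19.5% and 17.4%, did not pass the test. Others varied between control replicates. Peg10 had 76.9% and 2.70% in control and 27.8% and 33.3% in Dnmt1 KO, and Plagl1 had 69.8% and 28.8% in control and 42.9% and 34.6% in Dnmt1 KO. Of the loci with paternal methylation, Meg3 alone had enough calls, with 80% and 97.4% in control and 84.6% and 26.3% in Dnmt1 KO, and did not pass the test. The starts of Xlr3a, Xlr3b, Xlr3c, Mirg and Rian had too few calls to be tested, with up to 14 calls per library.

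Many germline genes are held silent by methylation of their starts in cells of the body. Of 27 such genes 11 had enough calls at the start, and 2 were lower, against 5.43% of all starts tested. By starting level this was 2.19% of those at 10 to 30%, 12.4% at 30 to 50%, 32.5% at 50 to 70% and 48.0% at 70% or more. Hormad1, of the meiotic chromosome axis, went from 79.3% and 76.5% in control to 24.3% and 13.3% (adjusted p = 0.000831, quasi-binomial model). Its control level on the other days was lower, 51.1%, and its late share of 59.6% was above the 24.2% of day 3. Dpep3, a dipeptidase gene of the testis, went from 88.6% and 63.6% to 30% and 20% (adjusted p = 0.00775, quasi-binomial model). Dazl, the gene of an RNA-binding protein of germ cells, had 34.04% and 26.7% in control and 35.5% and 41.9% in Dnmt1 KO, which did not pass the test. Stk31, Brdt and Slc25a31 had shares of 48.1%, 45.7% and 49.9% that did not pass it either. Over the list the level was 61.6% and 55.7% in control and 28.7% and 32.4% in Dnmt1 KO, a share of 52.1%. The window of 200 bases upstream of Hormad1 with the most calls is printed because this start had the lowest adjusted p of the list. It was picked by the rule given for the tiles, and its calls were methylated in 15 of 16 cases in control and in 1 of 7 in Dnmt1 KO.
Hormad1 upstream, chr3:95363099-95363298, NCBIM37, plus strand: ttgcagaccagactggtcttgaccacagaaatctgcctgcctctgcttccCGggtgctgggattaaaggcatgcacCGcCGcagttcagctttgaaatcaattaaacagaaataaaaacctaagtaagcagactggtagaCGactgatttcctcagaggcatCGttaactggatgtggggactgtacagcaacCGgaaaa

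Shares of gene families in clusters are given next. Vomeronasal receptor genes, expressed in the pheromone-sensing organ, had 77.6% and 76.8% in control and 25.1% and 27.2% in Dnmt1 KO over their bodies, a share of 33.9%. All 68 bodies with enough calls were lower, and 0 were called for their share, with 7 at an unadjusted p under 0.05, against 97.7% of all bodies lower and 2113 of 15499 at such a p. Olfactory receptor genes stood at 81.1% and 79.2% in control and 30.3% and 31.4% in Dnmt1 KO, a share of 38.5%. Zinc finger protein genes, with 278 of 289 bodies lower and 1 each of 270 called for a high and a low share (1.45% and 0.471% of all bodies), kept 45.1% in their bodies, from 75.6% and 75.03% to 33.5% and 34.4%, and had 14.6% and 14.2% in control and 5.68% and 5.35% in Dnmt1 KO at their starts. Hox bodies had 27.9% and 26.9% in control and 10.2% and 10.6% in Dnmt1 KO, a share of 37.9%, and the clustered protocadherins went from 50.8% and 49.3% to 16.5% and 20.5%, a share of 36.9%. Differences between families were not tested. Reads of near-identical family members can be split or lost in alignment, so the values of single members are uncertain.

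The gene starts that could be tested were mostly unmethylated before the loss. Of 26676 listed starts, 8770 had at least 10 calls in each day 3 library. Of these, 476 (5.43%) were lower in Dnmt1 KO and 0 were higher, with 1 higher at an unadjusted p under 0.05 in the quasi-binomial model. The lower starts came to 305 and 237 without Dnmt1 KO replicate 1 or 2, and to 228 with limma. With 0.5 and 2 times the minimum of calls they came to 1625 of 14687 and 107 of 3424. The fraction called lower thus depended on the minimum of calls, and 5.43% holds for the starts that passed the one used here. The calls followed the starting level in control of the other days, with 3 of 5239 starts under 10%, 49 of 2236 at 10 to 30%, 56 of 451 at 30 to 50%, 78 of 240 at 50 to 70% and 290 of 604 at 70% or more. A start had to lose at least 10 points to be called, so this order partly follows from the rule. Starts under 10% could hardly be called. Their median level was 3.16% in control and 1.03% in Dnmt1 KO, so their median single share of 20.5% rested on few methylated calls. It is no measure of how much they lost. At the starts of histone and zinc finger protein genes, also low, single shares had medians of 16.2% and 28.4%. Summed calls there gave 45.6% and 38.3%. At 70% or more the median level went from 83.8% to 37.8%, and the median of the shares of single starts was 46.2%, close to that of gene bodies. At starts of 30 to 50%, the median level went from 35.3% to 11.11%, and the median of the single shares was 33.3%. Among the 10 largest losses in points were those at the starts of the tight junction gene Cldn14, with 100% in both control libraries and 21.4% and 0% in Dnmt1 KO, the uroplakin gene Upk1b, from 94.1% and 90% to 5.88% and 13.3%, the antigen presentation gene H2-DMb1, from 82.4% and 70% to 0% in both, the cohesin gene Stag1, from 87.0% and 94.7% to 12.5% and 13.0%, and the meiotic gene Hormad2, from 76% and 92.3% to 10.3% and 8.70%. These starts had 10 to 29 calls per library and adjusted p from 1.69e-08 to 4.5e-05 in the quasi-binomial model, and they were picked from the 10 largest differences after their values were seen.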

How the data were processed

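CpG methylation was read by whole-genome bisulfite sequencing. According to the methods, the authors trimmed paired reads, aligned them with Bismark to NCBIM37 and removed duplicates. The submitters' processing notes give Bismark 0.12.3 and the methods another version, which was not resolved. The deposited tables hold counts of methylated and unmethylated calls per cytosine and strand. The deposited percent equalled the methylated share of these counts at 100% of the day 3 entries and was not used further. Between 0.114% and 0.120% of the day 3 cytosines lay outside a CpG and were left out. Depth and its limits are given with the results, and intervals and floors cover counting error only.

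Groups came from the labels. Calls were summed over 100 kb and 10 kb tiles, gene bodies, gene starts (1 kb on either side) and classes of CpGs, with GENCODE models of the same build, and 5 figures were drawn with matplotlib 3.10.9. Pseudogenes and small and ribosomal RNA genes were left out of the models. Genes in or nearest to a tile also exclude those of up to 1 kb. The reference used here does not mark repeats. Features were compared in a quasi-binomial model (R 4.3.3) with a level per genotype and day over all 18 libraries, which took the lone day 6 libraries to vary like the others, and limma 3.58.1 moderated the dispersion (2.05 for 100 kb tiles). Minimum calls, thresholds and the comparison with the median feature are given where first used. Tests were tried on simulated data: shares changed 1.5-fold were called in 79.1% of 100 kb tiles, 8.96% of 10 kb tiles and 53.7% of gene bodies. The simulation used 1 dispersion for all features, below that of the real 100 kb tiles and gene bodies. The rates for 100 kb tiles and gene bodies can therefore be too high. Named tiles and bodies were the 10 highest and 10 lowest called shares, and of each list up to 5 members with the most calls. Dnmt3b, Nnat, Nap1l5, Dpep3, Pou5f1 and members without a call were named after their values were seen. A gene body and a run of tiles are not reported here. The members, lists and tests were chosen with earlier results of these data known. Same-numbered libraries of day 3 did not deviate together (r = -0.00117 over 24027 tiles), so the number was not used as a pairing. Alternatives were other minimum calls, spread from day 3 alone, limma on levels, a replicate block, leaving out each library, leaving out cytosines over 20 calls, other starting levels, no minimum size, loss in points, background subtraction and a mean over cytosines.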

Additional observations from a re-analysis of the deposited data

How the results depend on the processing

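The counts of tiles and bodies called for a high or low share depended on the settings far more than the overall loss did. For 100 kb tiles (718 high, 51 low), 2 times the minimum of calls gave 70 and 3, the spread of day 3 alone 23 low, limma on levels 221 low, a start of 70% or more 150 low, and the loss in points 16 and 2. Leaving out 1 library gave 51 to 542 high and 0 to 32 low. For 10 kb tiles (1022 and 5), 0.5 and 2 times the minimum gave 1560 and 209 high, the spread of day 3 alone 9 low, limma 0 and 24, a start of 70% or more 1553 high, the loss in points 84 and 164, no deep cytosines 3 low, and leaving out 1 library 230 to 1706 high and 1 to 6 low. 2 times the minimum left 123372 of 127783 tiles lower. For bodies (224 and 73), limma gave 0 and 3, no minimum size 398 high, the loss in points 90 and 39, and leaving out 1 library 111 to 186 high and 19 to 61 low. Gene starts called lower (476 of 8770) came to 1625 of 14687 and 107 of 3424 with 0.5 and 2 times the minimum, 228 with limma and 237 to 339 without 1 library. With the replicate number as a block in limma, although the numbers did not pair the libraries, 0 tiles of either size and 0 bodies were called for a share in either direction, and 85 starts were lower. The cause was not tested. Some settings also remove features or libraries, and 2 times the minimum of calls left 15926 of 23809 tiles of 100 kb to be tested for their share.

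Without cytosines over 20 calls, or as a mean over cytosines, shares were 41.5% and 41.6% for A or T on both sides, 46.1% and 46.1% for exons, and 36.9% and 37.0% for the lowest GC class, whose share of summed calls was 42.3%. The densest class had 49.1% with 50 or more CpGs within 500 bp. Agreement at 21 to 50 bp was 0.413 in Dnmt1 KO and 0.363 in control in sparse sequence, and 0.713 in control with cytosines of any number of calls. The genome-wide share stayed between 44.1% and 45.7% under its 7 alternatives. Of 182 recomputed values, 123 stayed within 1.5 times the count or within 1 SD of the replicates, and 59 moved further. For shares and agreement, leaving out 1 of the replicates that set this SD could not move a value by 1 SD. Such values are among those that stayed and say nothing on stability. Shares summed without deep cytosines for each class, runs of 4 cytosines and the comparison of opposite strands were added after the data were examined. With about 1.2 calls per cytosine, no statement on a single CpG can be made, and 10 kb tiles with a share 1.5-fold from the median were mostly missed in the simulation.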
